A study of Mus musculus with 4 samples.

Results

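The windows described here are the NANOG-bound sites around Nodal, its co-receptor gene Tdgf1, the antagonist genes Lefty1 and Lefty2 and the inhibitory SMAD gene Smad7 in mouse embryonic stem cells (ESCs). A window is a stretch of 351 bp centred on the summit of a NANOG peak. Windows were taken by position alone, as all those with their centre in 4 ranges that reach about 100 kb to either side of the genes (GRCm38/mm10), of 250.0 kb around Lefty2 and Lefty1 on chromosome 1, 208.0 kb around Tdgf1 on chromosome 9, 209.0 kb around Nodal on chromosome 10 and 229.0 kb around Smad7 on chromosome 18. This gave 13 of the 21066 windows of the series, with 3 at Lefty1 and Lefty2, 4 at Tdgf1, 1 at Nodal and 5 at Smad7. All 13 reached 0.9 RPKM (reads scaled to window length and to the size of the library) in at least one condition, the threshold for a bound site, as did 16608 windows in all.

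NANOG was measured by chromatin immunoprecipitation and sequencing (ChIP-seq) in ZHBT-O4AID ESCs, in 2 uninduced libraries and 2 libraries made 1.5 h after addition of indole-3-acetic acid (IAA, an auxin) at 500 μM. All cells were of strain 129SV and lacked endogenous Oct4 (Oct4-/-), with 3 transgenes called TetOFF Oct4, CAG Oct4AID and CAG Tir1. The first encodes wild-type OCT4 and was kept off by doxycycline. The second, driven by the constitutive CAG promoter, supplies OCT4 fused to an auxin-inducible degron, and the third supplies the plant adaptor TIR1, which marks the fusion for degradation once IAA is present. Both groups grew in N2B27 medium with the MEK inhibitor PD03, the GSK3 inhibitor Chiron, LIF and doxycycline, so MEK signalling was blocked and Wnt signalling was mimicked in controls too. The question put to each window is how NANOG signal differs after OCT4 is depleted. No control given the solvent alone was analysed here.

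Nodal is a secreted ligand of the TGF-β family that signals through activin receptors together with the membrane-anchored co-receptor encoded by Tdgf1, also called Cripto. Receptor activation phosphorylates SMAD2 and SMAD3, which enter the nucleus with SMAD4 and bind DNA with partners such as FOXH1, and among the genes switched on are Nodal itself and Lefty1 and Lefty2. The LEFTY proteins are secreted antagonists that keep Nodal from its receptors, and SMAD7 is an intracellular inhibitor that blocks TGF-β family receptors, so the loci cover the ligand, its co-receptor and both layers of negative feedback. Mouse ESCs express this circuit, and Lefty1, Lefty2 and Tdgf1 are known as genes active in the pluripotent state.

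Both Lefty genes had a NANOG window upstream, and the DNA under these windows was alike. The central 300 bases of each are shown because they hold the FOXH1 motif, the element read by the DNA-binding partner of Nodal-activated SMADs. The Lefty2 window lay 4231 bp upstream of the gene (chr1:180888702-180889052) and the Lefty1 window 10194 bp upstream (chr1:180924653-180925003), both in intergenic DNA. The printed bases are chr1:180888727-180889026 on the minus strand for Lefty2 and chr1:180924678-180924977 on the plus strand for Lefty1, 5′ to 3′, with capitals for FOXH1 motifs, searched as AATCCACA and here read on the other strand as TGTGGATT, and in the Lefty1 window also for a SOX motif, searched as ACAATG.
Lefty2 upstream window: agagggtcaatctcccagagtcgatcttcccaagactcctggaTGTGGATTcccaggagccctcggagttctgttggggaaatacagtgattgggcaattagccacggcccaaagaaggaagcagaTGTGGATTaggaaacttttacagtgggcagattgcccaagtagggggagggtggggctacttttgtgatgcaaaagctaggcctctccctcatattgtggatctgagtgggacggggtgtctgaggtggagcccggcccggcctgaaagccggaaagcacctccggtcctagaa
Lefty1 upstream window: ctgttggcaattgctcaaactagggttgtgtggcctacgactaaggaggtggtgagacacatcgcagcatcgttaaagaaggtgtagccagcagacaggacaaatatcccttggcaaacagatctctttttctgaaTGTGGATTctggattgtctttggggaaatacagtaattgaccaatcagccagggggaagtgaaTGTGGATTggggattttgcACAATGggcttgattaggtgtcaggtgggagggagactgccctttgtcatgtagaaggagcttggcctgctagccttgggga

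Each of these windows held 2 FOXH1 motifs, with starts 83 bp apart at Lefty2 and 63 bp apart at Lefty1. At least 1 such motif was found in 1.60% of all 21066 windows, and 2 or more in only 8 of them, counting the Lefty pair. Aligned to each other, with the Lefty2 window on its minus strand, they shared 103 identical bases over 152 columns (67.8%), of which 29 were gaps. Against the Lefty1 window, the local alignment score of 52 for the Lefty2 window was the highest of the 21065 other windows, and the next was 39. The longest run of identical letters in the printed stretches, ttggggaaatacagt, was 15 bases long. A match of letters is a description of the DNA and shows neither binding nor its effect.

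At Tdgf1, the stronger of a pair of upstream windows lay in intergenic DNA 1403 bp upstream of the gene (chr9:110947386-110947736). It held the NANOG motif TAATGG, centred 18 bp before the centre of the window.

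The single window of the Nodal range is shown as a contrast, since of the motifs searched only the short SMAD site CAGAC was found in it. It lay at chr10:61452768-61453118, in intergenic DNA 34971 bp downstream of the Nodal start and 282 bp upstream of the start of Eif4ebp2, a translational repressor gene. The printed bases are chr10:61452793-61453092 on the plus strand, with no capitals because that short site was not marked.
Nodal window: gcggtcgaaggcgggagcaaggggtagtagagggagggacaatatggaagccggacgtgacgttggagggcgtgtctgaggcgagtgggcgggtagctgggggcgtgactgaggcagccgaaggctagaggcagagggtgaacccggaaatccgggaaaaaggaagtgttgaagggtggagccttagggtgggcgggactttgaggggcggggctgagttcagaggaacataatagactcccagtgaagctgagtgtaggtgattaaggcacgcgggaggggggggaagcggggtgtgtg

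The other motifs separated the windows less. The octamer ATGCAAAT, the site read by OCT4, was found in 0 of the 13 windows and in 3.71% of all windows. The SOX motif was found in 4 of 13 windows (33.2% of all windows), at Lefty1, at both Ctif windows of the Smad7 range and upstream of Prss46 in the Tdgf1 range. The NANOG motif was found in 3 of 13 (19.2% of all), in the Tdgf1 window above and in a Smad7 intron and a Ctif intron window. The short SMAD site was found in 12 of 13 windows and in 55.1% of all windows. The exception was the window upstream of Smad7. The palindromic SMAD site GTCTAGAC (0.309% of all windows), the SMAD site GGCGCC (2.21%) and the ESRRB motif CAAGGTCA (8.29%) were found in 0 of 13, and the TCF motif ATCAAAG in 1 (9.08% of all), the Ephx1 window of the Lefty range. Both strands were searched, and none of the motifs contains another.

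Annotation flags deposited with the windows say whether OCT4 binds within 1 kb and whether the window belongs to the active promoter, active enhancer or repressed class. Of the 13 windows, 6 carried the OCT4 flag (23.7% of bound windows did), 5 the active enhancer flag (10.6%) and 4 carried both (6.24%), whereas 0 were flagged as promoter or repressed. The 4 with both flags were the Lefty1 upstream window, the pair upstream of Tdgf1 and the window upstream of Smad7. The Lefty2 upstream window and the near Ctif window carried the OCT4 flag alone, and the far Ctif window the enhancer flag alone. Of the 13, 7 were intergenic and 6 intronic.

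The libraries differed in depth and in how much of the signal fell in bound windows, and this touched every value below. Recovered library sizes ranged from 5406307 reads (IAA replicate 2) to 19634763 reads (IAA replicate 1). Bound windows held 1.60% and 2.28% of the reads of the uninduced libraries and 3.05% and 3.24% of those of the IAA libraries. The median change over all 16608 bound windows was accordingly 0.76, where a change is IAA minus uninduced in log2(RPKM + 0.1). Changes of low values are understated on this scale. Changes of single windows are therefore also given relative to this median. The 13 windows held between 2 and 209 reads per library, so that counting error was large for most of them.

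After IAA, mean NANOG signal was higher in all 13 windows, and 14243 of the 16608 bound windows also had a change above 0. The 13 had a median change of 0.82, which was 0.07 above the median of all bound windows, and 8 of them lay above that median and 5 below. In limma over all bound windows with Benjamini-Hochberg adjustment, 1 of the 13 windows rose and 0 fell, while 15.0% of all bound windows were called higher and 0.337% lower. With values centred on the median bound window of each library, 0 of the 13 were called, and over all bound windows 47 were called higher and 198 lower, where 2493 and 56 were called without centring. The called window was the one upstream of Smad7. Signal in each IAA library exceeded that in each uninduced library in 9 of the 13 windows, against 60.5% of all bound windows, and the opposite order was seen in 0 of 13, against 4.23%. These shares are close to those of the whole series. The count of calls depended on single libraries: it was 0 without uninduced replicate 1 or without either IAA replicate, and 9 without uninduced replicate 2. The share of all bound windows called higher moved with it, to 10.5% without uninduced replicate 1, 0% without either IAA replicate and 40.7% without uninduced replicate 2.

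**Figure D1:**
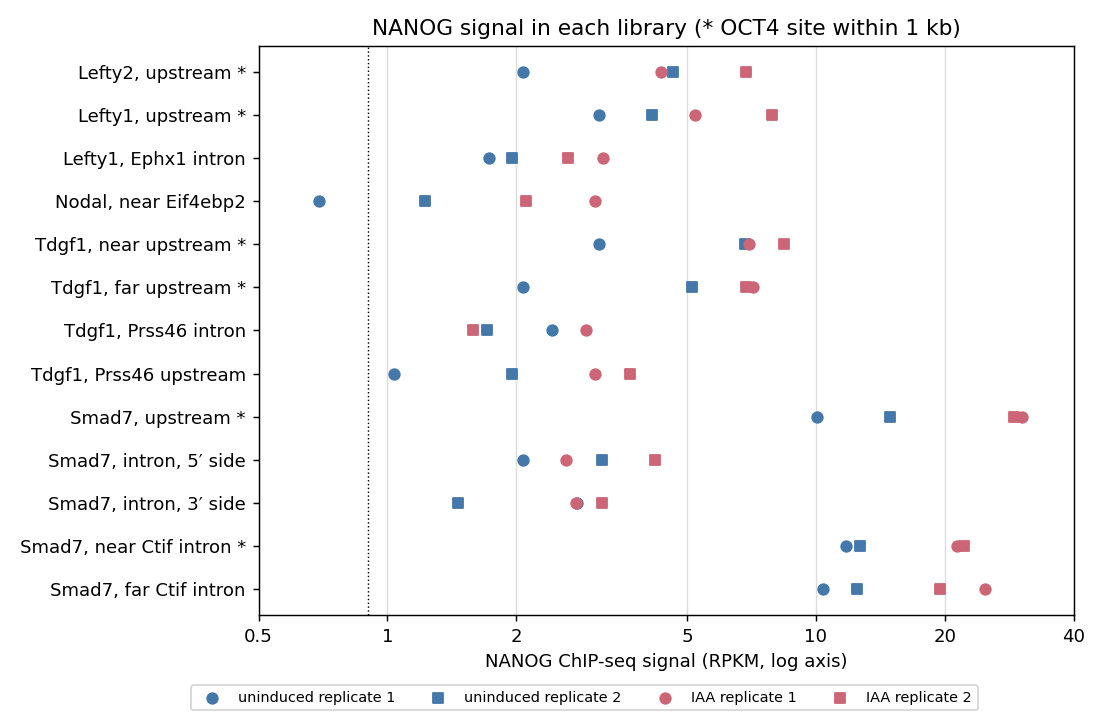
NANOG ChIP-seq signal (RPKM, log axis) of the 13 windows in each of the 4 libraries; blue is uninduced, red is IAA, circles are replicate 1, squares are replicate 2, the dotted line is the bound threshold of 0.9 RPKM and an asterisk marks an OCT4 site within 1 kb. The groups do not overlap in 9 windows, and 3 Smad7 windows stand above the other 10 in every library.

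Nodal, the ligand gene, had a single and weak window, at rank 15110 of the 16608 bound windows by mean signal, and none within the gene itself. Its signal was 0.692 and 1.22 RPKM in the uninduced libraries (2 and 5 reads) and 3.05 and 2.11 RPKM after IAA (21 and 4 reads). Both IAA libraries were above both uninduced ones. The change was 1.37 ± 0.68 (SE, n = 2 against 2), or 0.61 above the median of bound windows. It was the largest of the 13 changes but did not pass the threshold (limma adjusted p = 0.136). On merged reads the ratio was 2.84, with a 95% exact interval of 1.19 to 7.78 that covers counting error only. Of such intervals for the 13 windows, 5 lay above 1. No share over all bound windows was computed beside this count, and their median change was itself 0.76. The intervals of the upstream windows of Lefty1 (0.95 to 2.61) and Lefty2 (0.82 to 2.34) were among those that included 1. The Nodal window carried no flag, and its nearest coding start was that of Eif4ebp2, not of Nodal.

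Tdgf1, the co-receptor gene, had its strongest signal in the pair of upstream windows, whose centres lay 670 bp apart and which may share sequenced fragments. The near window, 1403 bp upstream, had 3.11 and 6.83 RPKM in the uninduced libraries and 6.96 and 8.43 RPKM after IAA. The far window, 2073 bp upstream (chr9:110948056-110948406), had 2.08 and 5.12 RPKM before and 7.11 and 6.85 RPKM after. In both, the groups were apart but uninduced replicate 1 was far below uninduced replicate 2, and in the near window replicate 2 nearly met the lower IAA library. Their changes were 0.72 ± 0.44 (SE, adjusted p = 0.223) and 1.07 ± 0.45 (SE, adjusted p = 0.0815), respectively 0.04 below and 0.31 above the median of bound windows. Neither passed the limma threshold. Their changes were 1.27 and 1.70 without uninduced replicate 2, but 0.16 and 0.44 without uninduced replicate 1.

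The other 2 windows of the Tdgf1 range lay downstream near Prss46, a serine protease gene, and carried no flag. The one 2776 bp upstream of the Prss46 start (chr9:110841555-110841905) was weak, between 1.04 and 3.69 RPKM, with a change of 1.18 ± 0.59 (SE, adjusted p = 0.139) and groups apart. The one in a Prss46 intron (chr9:110852469-110852819) ranged from 1.58 to 2.90 RPKM with overlapping groups and a change of 0.07 ± 0.60 (SE, adjusted p = 0.937), the smallest of the 13. It consisted to 96.6% of bases masked as repeats, against at most 18.8% in the other 12 windows, and reads that match several copies of a repeat may be placed uncertainly.

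Lefty1 and Lefty2, the antagonist genes, showed nearly equal changes at their upstream windows. Lefty2 had 2.08 and 4.64 RPKM in the uninduced libraries (6 and 19 reads) and 4.35 and 6.85 RPKM after IAA (30 and 13 reads). Lefty1 had 3.11 and 4.15 RPKM before (9 and 17 reads) and 5.22 and 7.90 RPKM after (36 and 15 reads). The groups overlapped at Lefty2, where uninduced replicate 2 exceeded IAA replicate 1, and were apart at Lefty1. The changes were 0.79 ± 0.47 (SE, adjusted p = 0.212) and 0.82 ± 0.45 (SE, adjusted p = 0.179), only 0.04 and 0.07 above the median of bound windows. Neither passed in limma with all libraries. The changes were 1.35 and 1.02 without uninduced replicate 2, but 0.23 and 0.62 without uninduced replicate 1. With all libraries, the pair of FOXH1 motifs lay in windows whose change was close to the median of all bound windows. Among bound windows with an OCT4 site within 1 kb, as at both, they lay at the 73.7 and 75.1 percentiles.

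The third window of the Lefty range lay in an intron of Ephx1, an epoxide hydrolase gene, 65493 bp downstream of the Lefty1 start (chr1:181000340-181000690). It carried no flag and had 1.73 to 3.19 RPKM, with groups apart and a change of 0.63 ± 0.58 (SE, adjusted p = 0.426). This was 0.12 below the median of bound windows.

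Smad7, the inhibitory SMAD gene, held the strongest NANOG sites of the 4 ranges. Its upstream window, 22366 bp before the gene in intergenic DNA (chr18:75344988-75345338), ranked 154 of 16608 by mean signal. It had 10.03 and 14.9 RPKM in the uninduced libraries (29 and 61 reads) and 30.3 and 29.0 RPKM after IAA (209 and 55 reads). Both IAA libraries were about equal and well above both uninduced ones. The signal rose by 1.27 ± 0.45 (SE, n = 2 against 2; adjusted p = 0.0377 in limma), a 2.41-fold difference and 0.52 above the median of bound windows. On merged reads the ratio was 2.33 (95% exact interval 1.83 to 3.00, counting error only). The adjusted p was 0.0541 without uninduced replicate 1 and 0.453 and 0.56 without IAA replicates 1 and 2, while the change stayed between 0.99 and 1.55 without any one library. With log2 values centred on the median bound window of each library the change was 0.57 with an adjusted p of 0.174, and after quantile normalization 0.57 with 0.206, so the call was lost under both.

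A second strong pair lay in introns of Ctif, a gene for a translation initiation factor downstream of Smad7. The near Ctif window (chr18:75449747-75450097, 82393 bp from the Smad7 start) had 11.8 and 12.7 RPKM in the uninduced libraries and 21.3 and 22.1 RPKM after IAA, and ranked 294. The far Ctif window (chr18:75464933-75465283, 97579 bp from the Smad7 start) had 10.4 and 12.4 RPKM before and 24.8 and 19.5 RPKM after, and ranked 306. In both, replicates lay close together and the groups were well apart, yet the differences of 0.83 ± 0.44 (SE, adjusted p = 0.164) and 0.95 ± 0.44 (SE, adjusted p = 0.11) did not pass. They were 0.07 and 0.19 above the median of bound windows. The merged ratios were 1.75 (95% exact interval 1.35 to 2.28) and 2.04 (1.57 to 2.67). By limma's trend the error of a strong window came from windows of like signal and not from its own replicates.

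Within Smad7 itself there were 2 weak intronic windows with no flag. They lay 8316 bp (chr18:75375670-75376020) and 12890 bp (chr18:75380244-75380594) after the gene start and had 1.46 to 4.22 RPKM across the 4 libraries. The groups overlapped in both, and the changes of 0.36 ± 0.53 and 0.53 ± 0.56 (SE, adjusted p of 0.632 and 0.499) lay 0.40 and 0.23 below the median of bound windows. Relative to that median, changes lay 0.07 to 0.52 above at the strong windows outside Smad7 and below at the weak windows within it. The near Ctif window, at 0.07 above with an SE of 0.44, was close to the median of all bound windows, flagged or not. This difference among windows was not tested.

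**Figure D2:**
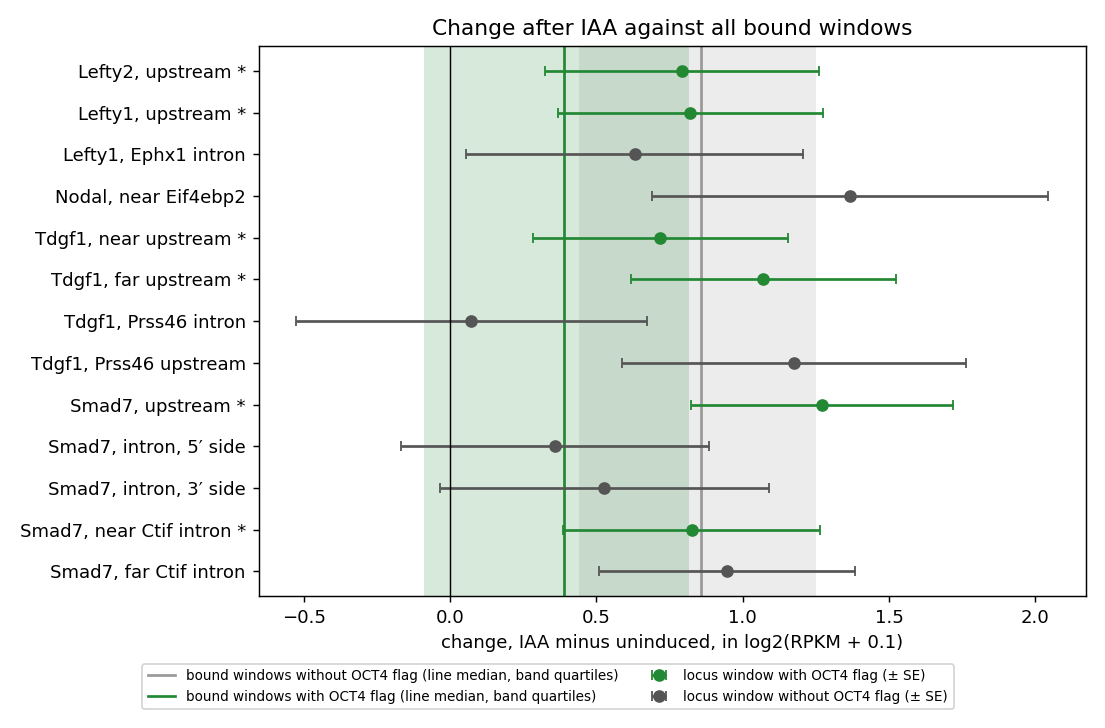
Change after IAA in log2(RPKM + 0.1) with its limma SE for the 13 windows, against the median (line) and quartiles (band) of bound windows with (green) and without (grey) an OCT4 site within 1 kb. The 6 windows with an OCT4 site all sit to the right of the green line at 0.39.

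Windows with an OCT4 site within 1 kb had a smaller change over the series (median 0.39, quartiles -0.09 and 0.82, n = 3930) than windows without one (0.86, n = 12678). The 6 such windows of these loci had a median of 0.82 and ranged from 0.72 to 1.27, while the 7 windows without the flag had a median of 0.63 and ranged from 0.07 to 1.37. Within the bound windows that carry the OCT4 flag, the 6 lay between the 69.5 and 92.0 percentiles of change, with the Smad7 upstream window highest at 92.0 and the far Tdgf1 window next at 86.4. The 7 without the flag spread from the 11.5 to the 80.8 percentile of unflagged bound windows. Since the ranges were picked as loci and windows of a locus share chromatin, these positions are a description with no test. The 4 with OCT4 and enhancer flags together had a median change of 0.95, where the 1037 such windows of the series had 0.49.

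Summed over a locus, the signal in each library followed the strong windows. Smad7 totals were 37.0 and 44.7 RPKM in the uninduced libraries and 81.8 and 78.0 RPKM after IAA, a ratio of 1.96 between means. Tdgf1 totals were 8.65 and 15.6 RPKM before and 20.02 and 20.6 RPKM after, a ratio of 1.67. The Lefty1 and Lefty2 total was 6.92 and 10.7 RPKM before and 12.8 and 17.4 RPKM after, a ratio of 1.71. At all of these, as at Nodal with its single window, both IAA libraries exceeded both uninduced ones, and p was 0.33 in two-sided exact permutation tests. With 2 libraries against 2 no smaller p can be reached.

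Each locus was also expressed as a share of the signal in all bound windows of a library. This share does not depend on how many reads fell in bound windows altogether. Its ratio between group means was below that of the total at every locus. This had to follow, because bound windows held more of the reads of both IAA libraries than of either uninduced library. The mean Smad7 share was 0.0749% ± 0.00863 in uninduced and 0.0893% ± 0.00697 in IAA libraries (SD, n = 2 each), 1.19 times as large, with groups apart. The Nodal share was 0.0017% ± 0.000258 before and 0.0029% ± 0.000869 after (SD, n = 2), a ratio of 1.71 on very few reads, also apart. The shares of Tdgf1 (ratio 1.05) and of Lefty1 and Lefty2 (ratio 1.06) overlapped between groups. The exact permutation test gave p = 0.33 for the first pair and p = 1.0 for the second.

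**Figure D3:**
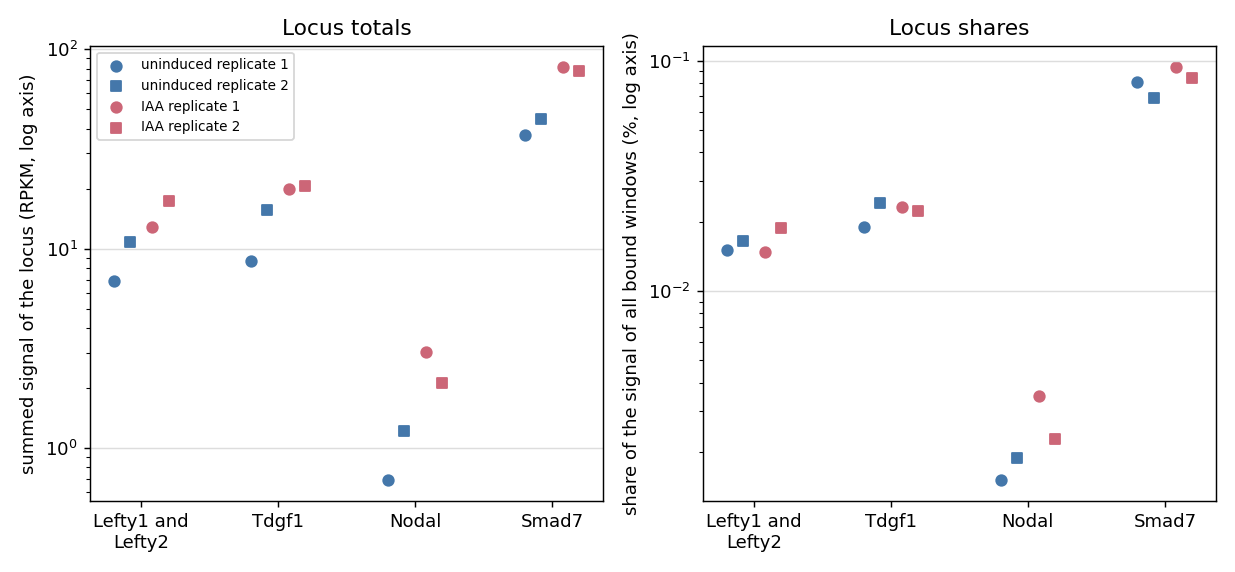
Summed RPKM of each locus (left, log axis) and its share of the signal of all bound windows in percent (right, log axis), 1 point per library; blue is uninduced, red is IAA, circles are replicate 1, squares are replicate 2. All 4 totals are higher in both IAA libraries, whereas the shares of Tdgf1 and of Lefty1 and Lefty2 overlap between the groups.

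Of 34 genes listed by role, 27 had at least 1 window within 100 kb of the gene body, with 97 windows in all, of which 91 were bound. Of these, 13 (14.3%) rose and 0 fell in limma, against 15.0% and 0.337% of all bound windows, with a median change of 0.70. Among ligands, 2 of 13 bound windows rose, both in the range of Gdf3, a Nodal-related ligand gene beside Nanog and Dppa3. They lay 95485 and 53896 bp from Gdf3. The window in an intron of Gdf3 itself was not called, with a change of -0.06 ± 0.51 (SE, limma adjusted p = 0.942). Of the 8 windows at the convertase genes Furin and Pcsk6, which encode proteases that cut ligand precursors, 1 rose. It lay in an intron of Blm, 93987 bp from Furin, and its groups overlapped (limma adjusted p = 0.0469). It had 0.346 and 3.66 RPKM before, the first a single read, and 3.48 and 4.22 RPKM after IAA. The count was 1 of 12 at receptor genes, 1 of 9 at SMAD and FOXH1 genes, 5 of 38 at negative regulators and 3 of 11 at the target genes Gsc and Eomes. The other 7 genes of the list had no window.

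The strongest bound window of a gene with a call was itself called at Gdf3, Smad2, Skil and Eomes. At Gdf3 it lay in an intron of Mfap5, 95485 bp away, with 5.88 and 13.7 RPKM before and 26.6 and 23.7 RPKM after IAA and a change of 1.47 ± 0.43 (SE, adjusted p = 0.0142). At Smad2, a receptor-activated SMAD, it was intronic, with 3.46 and 5.12 RPKM before and 12.9 and 15.8 RPKM after, a change of 1.74 ± 0.42 (SE, adjusted p = 0.00388). At Eomes, a T-box target of Nodal signalling, it lay in an exon, with 2.42 and 2.44 RPKM before and 10.6 and 8.43 RPKM after, a change of 1.92 ± 0.45 (SE, adjusted p = 0.00286). At Skil, a repressor of SMAD activity, the window lay in an intron of Slc7a14, 96859 bp from the gene. It had 1.04 and 2.20 RPKM before and 4.64 and 5.27 RPKM after, with a change of 1.64 ± 0.54 (SE, limma adjusted p = 0.0259). At all 4 both IAA libraries exceeded both uninduced ones.

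At the other 5 genes with a call a weaker window was called and the strongest was not. These were Acvr1b, the type I activin receptor that carries the Nodal signal (1.03 ± 0.44), Furin (1.06 ± 0.43), Gsc (1.06 ± 0.42), Tgif1 (0.56 ± 0.42) and Smurf2, a ubiquitin ligase gene of the pathway (-0.56 ± 0.44, each SE). The strongest Smurf2 window was intergenic, 98958 bp from the gene, and carried the OCT4 flag. It had lower signal in both IAA libraries, with 6.92 and 7.56 RPKM before and 4.50 and 5.27 RPKM after. The window in an intron of Smurf2 went the other way, with 2.77 and 2.20 RPKM before and 4.64 and 6.85 RPKM after. Its change was 1.16 ± 0.48 (SE, limma adjusted p = 0.0763).

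For orientation, windows elsewhere with the nearest pattern over the 4 libraries, by Euclidean distance in log2(RPKM + 0.1), were found for the strongest window of each locus. For Smad7 they lay in introns of Hax1 and Serpinb9b and in intergenic DNA 447443 bp from its nearest coding start, that of Grin2a (distances 0.199 to 0.312). For the near Tdgf1 window they lay in intergenic DNA with its nearest coding start at Msmb and in introns of Ncoa1 and Kirrel3 (0.0913 to 0.155), and for Lefty1 in an exon of Rab6b and introns of Btbd11 and Glod5 (0.173 to 0.182). For Nodal, where few reads leave few distinct values, they were intergenic, with the nearest coding starts at 1700016K19Rik, Epb41l4a and Hist1h2bj (0.0681 to 0.127). With 4 libraries such likeness says little beyond level and change, and of these 12 windows 2 carried the OCT4 flag, in Btbd11 and Glod5.

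How far the changes depended on scaling and on single libraries is shown for each window. With values centred on the median bound window, 9 of the 13 changes were above 0 and 4 below, and after quantile normalization the same 4 were below. These were the Ephx1, Prss46 intron and Smad7 intron windows, which had the smallest changes of the 13. They have no flag and few reads, but so do the Nodal and Prss46 upstream windows, which stayed above 0.

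**Figure D4:**
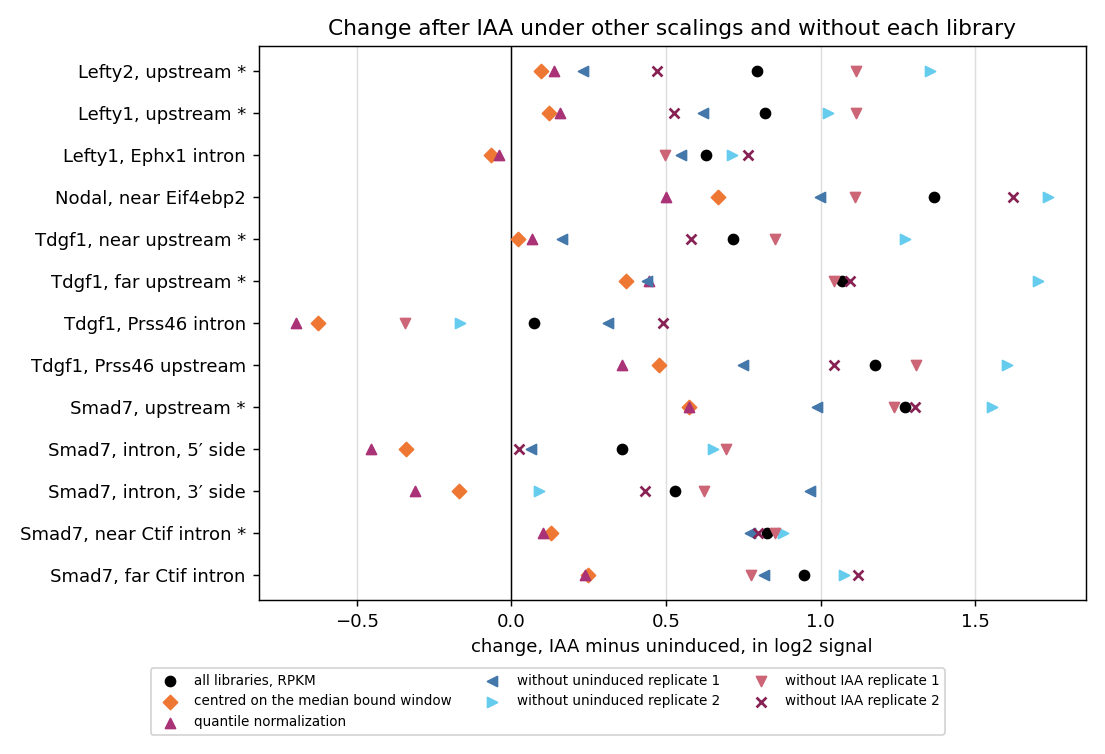
Change after IAA (log2 signal) of the 13 windows with all libraries, after centring on the median bound window, after quantile normalization and without each library in turn. Centring and quantile normalization move every window to the left, past 0 in 4 windows, and the Smad7 upstream window stays furthest right of the windows with an OCT4 site (0.57 under both).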

How the data were processed

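NANOG ChIP-seq was analysed in 4 libraries grouped by the labels, 2 uninduced and 2 IAA. The authors aligned reads to GRCm38/mm10 (Bowtie2 2.3.4.3), removed duplicates with SAMtools, called peaks once with MACS2 on the pooled reads of uninduced and IAA libraries and computed the deposited RPKM over 351 bp windows with DiffBind. RPKM is scaled to the total reads of a library, with no spiked-in chromatin, so changes are relative to that total. A deposited table gives flags from published OCT4 and chromatin data and the authors' RPKM per condition, which is the mean of the 2 libraries (largest departure 4.99e-06).

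All RPKM values (100.0%, tolerance 0.01 reads) were whole multiples of the smallest value of their library, taken as 1 read, and reads were recovered from it. No value was 0, so 1 read is the floor, worth 0.346 and 0.244 RPKM in the uninduced and 0.145 and 0.527 RPKM in the IAA libraries. The threshold of 0.9 RPKM then equals 2.60, 3.69, 6.20 and 1.71 reads.

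Changes were tested with limma 3.58.1 (R 4.3.3; variance trend, two-sided) on log2(RPKM + 0.1) over all 16608 bound windows, Benjamini-Hochberg adjusted, at 0.05. The estimated prior degrees of freedom were infinite, so errors came from the trend of spread with level. Nothing in the labels says that libraries came from separate cultures, and p-values measure only the spread between these libraries. Locus totals were compared by an exact permutation test. Alternatives were pseudocounts of 0.01 and 0.5, all windows, a threshold of 2 RPKM, quantile normalization, centring, a replicate block, no trend, voom on recovered reads and leaving out each library. The procedure was also run on simulated counts with the same spread beyond counting error in every library. They had no shift shared by all windows, whereas the median change here was 0.76. That run therefore does not test the calls made here.

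Deposited starts were taken as counting from 0 and are given 1-based. Genes and positions came from GENCODE mouse release M21 and sequences and repeat masking from RefSeq's GRCm38 assembly. Windows given in every library were the strongest of each locus, those with an OCT4 flag and those past the threshold, and, chosen after its values were seen, the far Ctif window. Of the other pathway genes with a call, the strongest window was described. The loci, gene lists and motifs were chosen with earlier results of these data known. Python 3.11.15, numpy 2.4.6, pandas 2.3.3, scipy 1.17.1 and matplotlib 3.10.9 were used. Some pathway results and sequences are not reported here.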

Additional observations from a re-analysis of the deposited data

How the results depend on the processing

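Of the 13 windows, the count called higher (1) became 0 after quantile normalization, centring or without the variance trend and 3 with the replicate block, and ranged from 0 to 9 when 1 library was left out, the 9 without uninduced replicate 2. A lone library was then assumed to vary like the other group. Over all bound windows, calls numbered 2493 higher and 56 lower, 47 and 198 when centred, 0 and 1 after quantile normalization, 157 and 0 without a trend, 2489 and 55 by voom on recovered reads (1 of the 13 called), 2655 and 52 with the replicate block, 1749 and 140 without uninduced replicate 1, 6761 and 60 without uninduced replicate 2, and 0 without either IAA library. The count called lower stayed at 0 of 13 throughout. For the other pathway genes, the 13 windows called higher became 0 after quantile normalization, centring or without a trend and ranged from 0 to 40 when 1 library was left out; 1 was called lower when centred. The median change of the 13 windows, 0.82, was 0.14 after quantile normalization and 0.12 when centred, against all-window medians of 0.04 and 0.06. Changes turned negative after quantile normalization and centring, respectively, in the Ephx1 window (-0.039, -0.067), the Smad7 intron windows (-0.45, -0.34 and -0.31, -0.17) and the Prss46 intron window (-0.70, -0.62), the last from -0.35 to 0.49 when 1 library was left out, below 0 without uninduced replicate 2 (-0.17) or IAA replicate 1. Centring lowers every change by the same amount, and these windows had the smallest changes of the 13. What lies behind the other reversals was not tested. Locus totals kept their direction in every alternative run, but only the shares could have reversed it. Both IAA libraries exceeded both uninduced ones at every locus, which fixed the direction when libraries were left out or paired. All 13 windows were bound, so the run on bound windows was the same. As shares, the log2 ratio was only 0.08 at Tdgf1 and at Lefty1 and Lefty2, with overlapping groups. Totals were not recomputed after centring or quantile normalization. Same-numbered libraries did not deviate together (correlation 0.0055), so the replicate block, which called both Ctif windows too, rests on shared numbers only. Depth limited the weak windows most, down to 2 reads.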
